A study of Homo sapiens with 6 samples.

Results

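The 9 genes described here belong to the TGF-beta SMAD pathway and its transcriptional targets. They were matched by symbol in the merged count table, where all 9 were found among 24635 gene identifiers with counts, and all 9 passed the filter of at least 10 reads over the 6 libraries, as did 23304 genes in all. TGFBR1 and TGFBR2 are the type I and type II receptors, SMAD2, SMAD3 and SMAD4 carry the signal to the nucleus, SMAD7 and SKIL restrain it, and SNAI1 and SNAI2 are target genes that encode repressors of epithelial genes. The study sequenced total RNA from HEK293T cells, a human embryonic kidney line labelled HEK293T in the samples and HEK293 in the series' design text. The cells were grown in DMEM with 10% FBS, with no TGF-beta or other treatment in the labels. There were 3 libraries from cells expressing an shRNA control and 3 from cells expressing shRNA against RREB1, here sh-control and sh-RREB1. The methods describe stable lines made by lentiviral delivery of hairpins and drug selection, in both groups, and no label says whether the replicates were separate cultures, so p-values measure the spread between these libraries, which may be technical.

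Levels are from bulk RNA, in which fewer cells that express a gene and less RNA per cell cannot be told apart. In this pathway a TGF-beta ligand brings the type II and type I receptors together, and the type I kinase phosphorylates SMAD2 and SMAD3. These bind SMAD4, enter the nucleus and act at promoters and enhancers with partner factors. SMAD7 is induced by the pathway and directs the type I receptor to ubiquitin ligases, and SKIL (SnoN) holds SMAD complexes in a repressed state. SNAI1 (Snail) and SNAI2 (Slug) bind E-box sequences and repress genes such as CDH1 during epithelial-mesenchymal transition. RREB1 is a zinc finger transcription factor known as a cofactor of SMAD proteins.

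The libraries held 12257054 to 33044061 reads assigned to genes on the strand of the gene. The lowest total was that of sh-RREB1 replicate 3, in which 52.1% of reads mapped to several places, against 3.66% to 7.63% in the other 5 libraries. RREB1 itself was at 27.1, 25.2 and 26.6 reads per 1000000 (CPM) in sh-control and at 23.7, 24.6 and 23.2 CPM in sh-RREB1. The groups did not overlap, but the log2 fold change (sh-RREB1 minus sh-control) was -0.14 ± 0.13 (SE, n = 3 and 3, edgeR adjusted p = 0.486), with a 95% interval of -0.43 to 0.15, so the libraries are named by their labels and directions drawn from them rest on those labels. Of 8 genes typical of HEK293-type cells, 6 were above 1 CPM in every library, while PAX2 and MYCN were under 1 CPM in all 6. Genes of high GC content differed between the libraries as a class. Over genes with a mean of at least 1 CPM, the median log2 fold change was 0.59 for the 4828 genes with the highest exonic GC content (above 51.6%), -0.09 for the 4827 in the middle and -0.24 for the 4828 with the lowest (up to 43.1%). Within sh-control, the median of replicate 1 minus the mean of replicates 2 and 3 was -0.59 on the log2 scale for the genes of highest GC content and 0.19 for those of lowest. Because the 9 genes run from 36.6% to 58.4% GC, values from a fit with the GC and length trends removed stand beside the main ones below.

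Fold changes and p-values came from the quasi-likelihood test of edgeR, adjusted by the Benjamini-Hochberg method over all 23304 genes. Called genes had to pass both limits, an adjusted p under 0.01 and a log2 fold change over 1 in size. By this rule 3.41% of all genes were called, 2.71% higher and 0.699% lower in sh-RREB1, and DESeq2 called 7.07% and the GC-corrected fit 3.81%. The 794 genes behind this share depend on single libraries. Leaving out 1 sh-control library gave 1117, 9 and 383 called genes (replicates 1, 2 and 3), and leaving out 1 sh-RREB1 library gave 25, 136 and 8. None of the 9 pathway genes was called by edgeR, by DESeq2 or by edgeR after the GC correction, and 4 of the 9 had an unadjusted p under 0.05 in edgeR, beside 34.4% of all genes. At an adjusted p under 0.05 with no minimum fold, SMAD3 and SNAI1 passed, 2 of 9, against 19.6% of all genes (10.8% higher, 8.81% lower). In the GC-corrected fit SMAD3 and SNAI2 passed, against 20.2% of all genes. The groups did not overlap for 4 of the 9, SMAD3, SNAI1 and SNAI2 on the higher side and TGFBR1 on the lower, against 41.1% of all genes (21.1% higher, 20% lower). For these 4 the exact two-sided permutation test gave p = 0.1, the smallest that 3 against 3 libraries allow. The median log2 fold change of the 9 was 0.03, beside 0.01 over all genes, and 0.28 beside 0.10 after the GC correction.

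**Figure D1:**
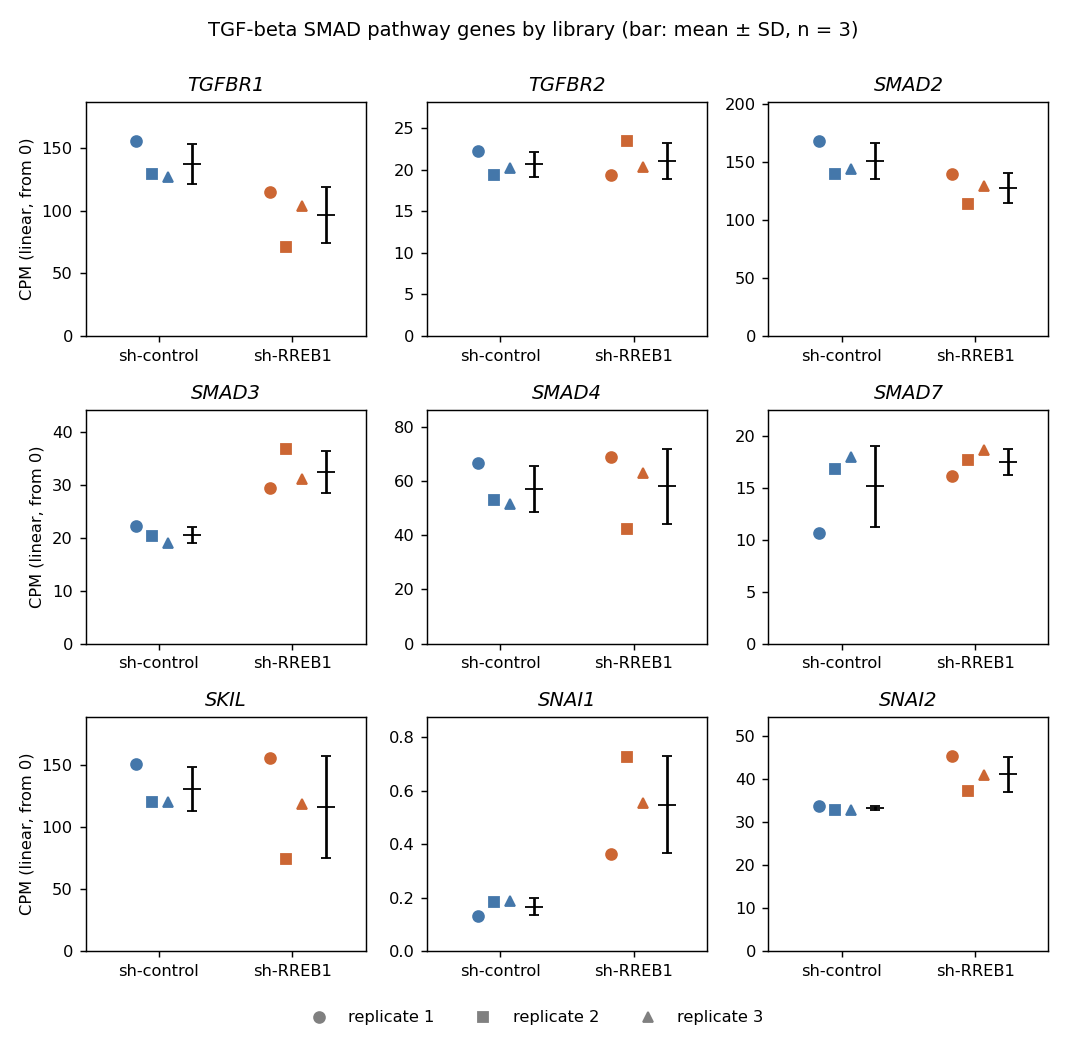
Each panel shows 1 gene, with CPM on a linear axis from 0 for the 3 sh-control libraries (blue) and the 3 sh-RREB1 libraries (orange), marker shapes for the replicate numbers, and black bars for the mean ± SD (n = 3). SMAD3, SNAI1 and SNAI2 lie higher in every sh-RREB1 library and TGFBR1 lower, while the other 5 genes overlap between groups.

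The receptors did not pass the call rule. TGFBR1 (ENSG00000106799, in hg38 by Gencode 44 at chr9:99104038-99154192, plus strand), the type I receptor kinase, was at 156, 129 and 127 CPM in sh-control, compared with 115, 71.4 and 104 CPM in sh-RREB1. All 3 sh-RREB1 libraries were below all 3 sh-control libraries, with replicate 2 the lowest. The log2 fold change was -0.51 ± 0.18 (SE, 95% interval -0.91 to -0.10, edgeR adjusted p = 0.0788). After the GC correction it was -0.15, at an adjusted p of 0.398. Leaving out each library in turn gave -0.65 to -0.33 (the latter without sh-RREB1 replicate 2), and -0.22 to -0.064 with the correction as well. TGFBR2 (ENSG00000163513, chr3:30606601-30694142, plus strand), the receptor that binds the ligand first, was at 22.3, 19.4 and 20.3 CPM in sh-control, compared with 19.4, 23.5 and 20.4 CPM in sh-RREB1. The groups overlapped, and the log2 fold change was 0.03 ± 0.15 (SE, 95% interval -0.30 to 0.36, adjusted p = 0.910). Leaving out sh-RREB1 replicate 2 gave -0.05 in this fit. After the GC correction the log2 fold change of TGFBR2 was 0.28 (95% interval 0.02 to 0.55, adjusted p = 0.132).

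The receptor-regulated SMADs are SMAD2 and SMAD3, the direct substrates of the type I kinase. SMAD2 (ENSG00000175387, chr18:47808957-47931146, minus strand) was at 168, 139 and 143 CPM in sh-control, compared with 139, 113 and 129 CPM in sh-RREB1. The groups overlapped, the log2 fold change was -0.24 ± 0.12 (SE, edgeR adjusted p = 0.206), and after the GC correction it was 0.05. SMAD3 (ENSG00000166949, chr15:67063763-67195173, plus strand) was at 22.3, 20.3 and 19.1 CPM in sh-control, compared with 29.5, 36.9 and 31.1 CPM in sh-RREB1, from 512, 552 and 614 reads and from 732, 966 and 392 reads. The 3 sh-RREB1 libraries were all above the sh-control libraries, replicate 2 the highest. The mean was 20.6 ± 1.59 CPM in sh-control and 32.5 ± 3.91 CPM in sh-RREB1 (SD, n = 3), a 1.58-fold difference (95% interval 1.25 to 1.99), with a log2 fold change of 0.66 ± 0.15 (SE) and an adjusted p of 0.0172. After the GC correction it was 0.53 at an adjusted p of 0.00847, and with DESeq2 0.65 at 0.00102, still under the minimum fold of the call. Leaving out each library in turn gave values from 0.56 to 0.73 and adjusted p-values from 0.00794 to 0.0773, over 0.05 when sh-control replicate 2 (0.0773) or 3 (0.0542) or sh-RREB1 replicate 3 (0.0640) was left out. Reads on the opposite strand of SMAD3 numbered 17 to 55 per library, 3.78% to 9.70% of the reads on either strand.

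SMAD4 (ENSG00000141646, chr18:51028528-51085045, plus strand), the common partner that joins the other SMADs, was at 66.6, 53.1 and 51.3 CPM in sh-control, compared with 68.9, 42.2 and 62.7 CPM in sh-RREB1. The groups overlapped, with sh-RREB1 replicate 2 the lowest of all 6. The log2 fold change was 0.02 ± 0.19 (SE, 95% interval -0.42 to 0.46, edgeR adjusted p = 0.952), and leaving out sh-RREB1 replicate 1 gave -0.12 and replicate 2 gave 0.21. After the GC correction it was 0.32 at an adjusted p of 0.0653.

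The 2 restraining genes overlapped between the groups. SMAD7 (ENSG00000101665, chr18:48919853-48950965, minus strand) was at 10.7, 16.7 and 17.9 CPM in sh-control, compared with 16.1, 17.7 and 18.6 CPM in sh-RREB1. The wide spread in sh-control came with 1 library, replicate 1, and the log2 fold change was 0.20 ± 0.21 (SE, 95% interval -0.27 to 0.68, edgeR adjusted p = 0.541). It was -0.03 without that library and -0.14 after the GC correction. SKIL (ENSG00000136603, chr3:170357342-170396835, plus strand) was at 151, 120 and 120 CPM in sh-control, compared with 156, 73.9 and 118 CPM in sh-RREB1. Here replicates 1 of the groups were the highest and sh-RREB1 replicate 2 the lowest. The log2 fold change was -0.17 ± 0.24 (SE, 95% interval -0.71 to 0.37, adjusted p = 0.671), 0.07 without sh-RREB1 replicate 2 and 0.12 after the GC correction.

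The SNAIL-family targets were both higher in each sh-RREB1 library than in any sh-control library. SNAI1 (ENSG00000124216, chr20:49982980-49988886, plus strand) was close to the detection limit, with 3, 5 and 6 reads in sh-control, compared with 9, 19 and 7 reads in sh-RREB1. These are 0.131, 0.184 and 0.187 CPM against 0.363, 0.726 and 0.555 CPM, a 3.17-fold difference (95% interval 1.56 to 6.44) and a log2 fold change of 1.67 ± 0.45 (SE, edgeR adjusted p = 0.0330). After the GC correction it was 1.13 at an adjusted p of 0.106, and DESeq2 gave no adjusted p. Leaving out each library in turn gave 1.35 to 1.92, at adjusted p-values from 0.0356 (without sh-RREB1 replicate 1) to 0.118 (without sh-RREB1 replicate 2), and the other 4 fits were also over 0.05, at 0.0606 to 0.0922. SNAI2 (ENSG00000019549, chr8:48917598-48921740, minus strand) was far more abundant, at 33.6, 32.8 and 32.9 CPM in sh-control, compared with 45.2, 37.1 and 40.8 CPM in sh-RREB1. The sh-control mean was 33.1 ± 0.459 CPM and the sh-RREB1 mean 41.1 ± 4.05 CPM (SD, n = 3). The log2 fold change was 0.31 ± 0.13 (SE, 95% interval 0.02 to 0.60, adjusted p = 0.123), and 0.24 to 0.38 with each library left out in turn, at adjusted p-values from 0.0719 to 0.323. After the GC correction it was 0.71 (95% interval 0.45 to 0.96) at an adjusted p of 0.000818, and leaving out each library in that fit gave 0.60 to 0.76, at 0.000851 to 0.00791.

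**Figure D2:**
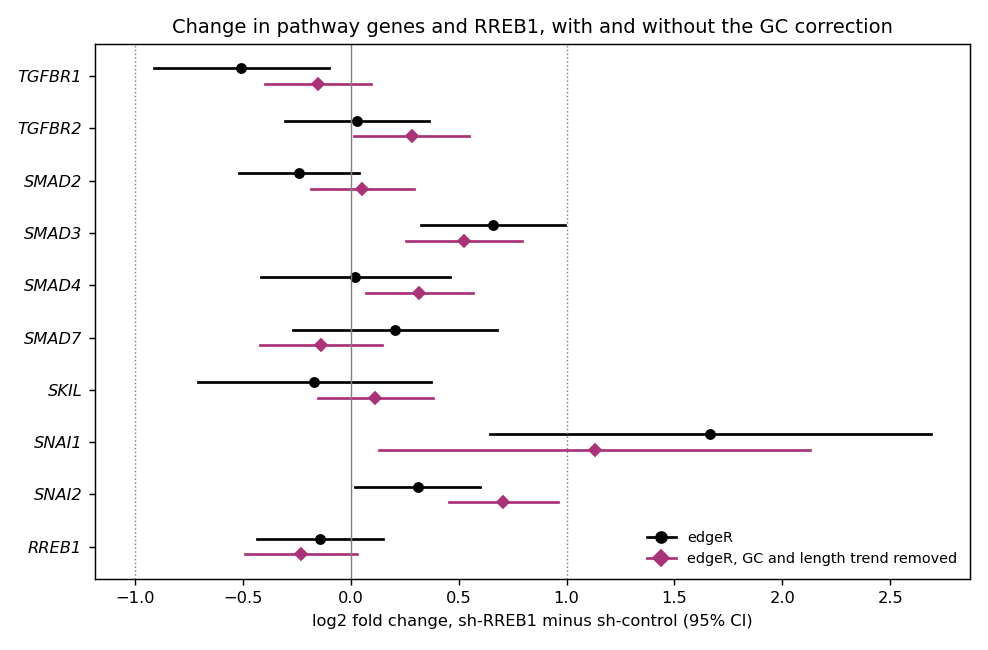
The horizontal axis is the log2 fold change, sh-RREB1 minus sh-control, with 95% intervals, for the 9 genes and RREB1, from edgeR (black circles) and from edgeR with the GC and length trends removed (purple diamonds). Dotted lines mark a log2 fold change of 1 in each direction. The intervals of SMAD3 (0.66 and 0.53), SNAI1 (1.67 and 1.13) and SNAI2 (0.31 and 0.71) lie above 0 in both fits. TGFBR2 and SMAD4 are above 0 in both, with intervals that include 0 in the first fit. SMAD2, SMAD7 and SKIL change sign between the fits.

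Levels between genes were compared per kilobase of exon (RPKM), on the sh-control means. The length was that of all annotated exons merged, 36426 bases for SMAD2 and 19606 for SMAD4, against 7990 for TGFBR1. The order therefore depends on the annotation and may differ from that of transcript levels. By mean CPM in sh-control, SMAD2 was at 150 and TGFBR1 at 138. TGFBR1 was at 17.2 ± 2.02 RPKM (SD, n = 3), SKIL at 16.0 ± 2.19 RPKM, and the ranges of this pair overlapped. SNAI2 followed at 10.1 ± 0.140 RPKM, apart from both neighbours. SMAD2, SMAD7, TGFBR2 and SMAD4 ran from 4.12 to 2.91 RPKM, and each overlapped the next in the order. SMAD3 was below them at 2.06 ± 0.158 RPKM, and SNAI1 was the lowest at 0.0981 ± 0.0186 RPKM. In sh-RREB1 the mean of SMAD3 was 3.25 ± 0.391 RPKM, and SNAI2 was at 12.5 ± 1.23 RPKM beside TGFBR1 at 12.1 ± 2.84 RPKM. Likeness of pattern was measured as the root mean square difference of mean-centred log2 CPM over the 6 libraries, among genes with a mean of at least 1 CPM. By it the nearest gene was KIRREL1 for SMAD3 (0.0380), NPNT for SNAI2 (0.0228), PTBP2 for TGFBR1 (0.0436) and NCL for TGFBR2 (0.0204). It was PPP1R15B for SMAD2 (0.0285), CNIH1 for SMAD4 (0.0236), KCNJ5-AS1 for SMAD7 (0.0305), HINT3 for SKIL (0.0237) and BCYRN1 for SNAI1 (0.112).

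Short stretches of promoters are shown for a few of these genes, since SMAD and SNAIL-family proteins are known to bind the letters searched for. RefSeq (GRCh38.p14) windows of 300 bases, from 250 before to 50 after a gene's start, were searched on both strands. Searched for were CAGAC (the core that SMAD3 and SMAD4 bind), GGCGCC (a GC-rich SMAD site) and GTCTAGAC (a palindromic site). The palindrome shares AGAC with the core but contains neither CAGAC nor its reverse complement. The last letters searched for were CAGGTG (the E-box that SNAIL-family repressors bind). The letters were in 45.3%, 19.2%, 0.202% and 20.6% of all 35116 windows. The 9 genes matched 22 windows of 7 genes, and CAGAC was in 10 of those windows, GGCGCC in 6, CAGGTG in 5 and GTCTAGAC in none. SMAD7 is shown because it is the inducible inhibitor, SKIL because its protein restrains SMAD complexes, SMAD3 because it had an adjusted p under 0.05, and OCLN and ZEB1 because they hold CAGGTG and had lower values in sh-RREB1, given further on. Each is read 5′ to 3′ on the strand of its gene, and the capitals mark the searched letters or their reverse complement.
SMAD7 217 bases before the start, chr18:48951165-48951194, minus strand: gccggacgccccCAGACctctgaggttcga
SMAD7 128 bases before, chr18:48951076-48951105, minus strand: ttcttattttgcCAGACgtctcatgcgggg
SKIL 107 bases before, chr3:170357596-170357625, plus strand: gacggcggcggcGTCTGcgggaagctgtgt
SMAD3 136 bases before, chr15:67065454-67065483, plus strand: ggtggccggccgGGCGCCctccccggagca
OCLN 33 bases before, chr5:69492502-69492531, plus strand: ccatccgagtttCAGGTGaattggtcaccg
ZEB1 57 bases before, chr10:31318348-31318377, plus strand: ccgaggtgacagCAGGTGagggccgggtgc
A match is a description of letters in a window. OCLN and ZEB1 were picked partly for their lower values, so they are examples only. CAGGTG was in 2 of 7 windows of ZEB1 and 2 of 2 of OCLN, and SNAI1, SNAI2 and CDH1 had no window to search. CAGGTG was also in 3 windows of TGFBR1, 1 of SMAD3 and 1 of SMAD7, genes whose log2 fold changes (-0.51, 0.66 and 0.20) lie on both sides of 0. The SMAD7 windows belong to a gene whose groups overlapped (0.20 on the log2 scale), and the SMAD3 window to a gene with 0.66.

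A further 129 genes of the pathway were taken in 10 lists by role, of which 124 were tested. Of these 4 were called, 3.23%, all higher in sh-RREB1, beside 3.41% of all genes. Without sh-control replicate 2 or any 1 of the sh-RREB1 libraries the count of 4 was 0, without sh-control replicate 3 it was 1 (BMP6) and without sh-control replicate 1 it was 5. With no minimum fold, 21 of the 124 (16.9%) had an adjusted p under 0.05, 14 higher and 7 lower, beside 19.6% of all genes. An unadjusted p under 0.05 was found for 42 of the 124 (33.9%), beside 34.4% of all genes. Among 16 ligands 1 was called, BMP6 (a bone morphogenetic protein), at 4.83, 4.31 and 4.61 CPM in sh-control, compared with 12.5, 12.1 and 11.2 CPM in sh-RREB1. Its log2 fold change was 1.38 ± 0.16 (SE, edgeR adjusted p = 0.00246) and 1.06 after the GC correction. TGFB2, chosen after its values were seen, had a log2 fold change of 0.99 (adjusted p = 0.0507) and 1.31 (0.00436) after it. NODAL and LEFTY2, with 4 and 3 reads in all, were not tested.

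Among 14 genes for ligand storage and antagonists 2 were called, and the median log2 fold change of the 14 was 1.01, beside 0.01 over all genes, with a median of 57.9% GC. FURIN, a protease that matures TGF-beta precursors, was at 1.74, 4.01 and 5.52 CPM in sh-control, compared with 14.0, 19.1 and 11.5 CPM in sh-RREB1. Every sh-RREB1 library was above every sh-control library, with a log2 fold change of 1.98 (adjusted p = 0.00970 by edgeR) and 1.04 (0.000783) after the GC correction. FSTL3, a follistatin-like protein that binds activins, was at 0.392, 0.810 and 0.842 CPM in sh-control, compared with 1.89, 3.21 and 2.46 CPM in sh-RREB1. Its log2 fold change was 1.86 (adjusted p = 0.00844), and after the GC correction it was 0.58 and no longer called (0.131). The median of the list after the correction was 0.40, beside 0.10 over all genes, and 6 of the 14 had a mean under 1 CPM.

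None of 13 other receptors and co-receptors was called by edgeR or by DESeq2, and 1 had an unadjusted p under 0.05. It was ACVR2A, an activin type II receptor, with a log2 fold change of -0.53 (adjusted p = 0.0476 by edgeR) and -0.18 after the GC correction. None of 4 other SMADs was called by either tool, and 0 of 4 had an unadjusted p under 0.05. SMAD6, the inhibitory SMAD of the bone morphogenetic protein branch, had -0.31 (adjusted p = 0.194) and -0.77 (0.000521) after the correction. Among 12 corepressors and negative regulators none was called by either tool, and 2 had an unadjusted p under 0.05. SKI, a paralog of SKIL, had 0.87 (adjusted p = 0.0383), which was -0.18 after the correction. Of 13 activators and partners 1 was called, RUNX1, a transcription factor that joins SMAD complexes, at 0.566, 0.626 and 0.530 CPM in sh-control, compared with 2.34, 1.72 and 1.43 CPM in sh-RREB1. Its log2 fold change was 1.69 (adjusted p = 0.00656) and 1.89 after the correction. Of the 13 activators and partners, 8 (61.5%) had an unadjusted p under 0.05 in edgeR, beside 34.4% of all genes. An adjusted p under 0.05 was found for 4 (30.8%), 2 higher and 2 lower, beside 19.6% of all genes.

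**Figure D3:**
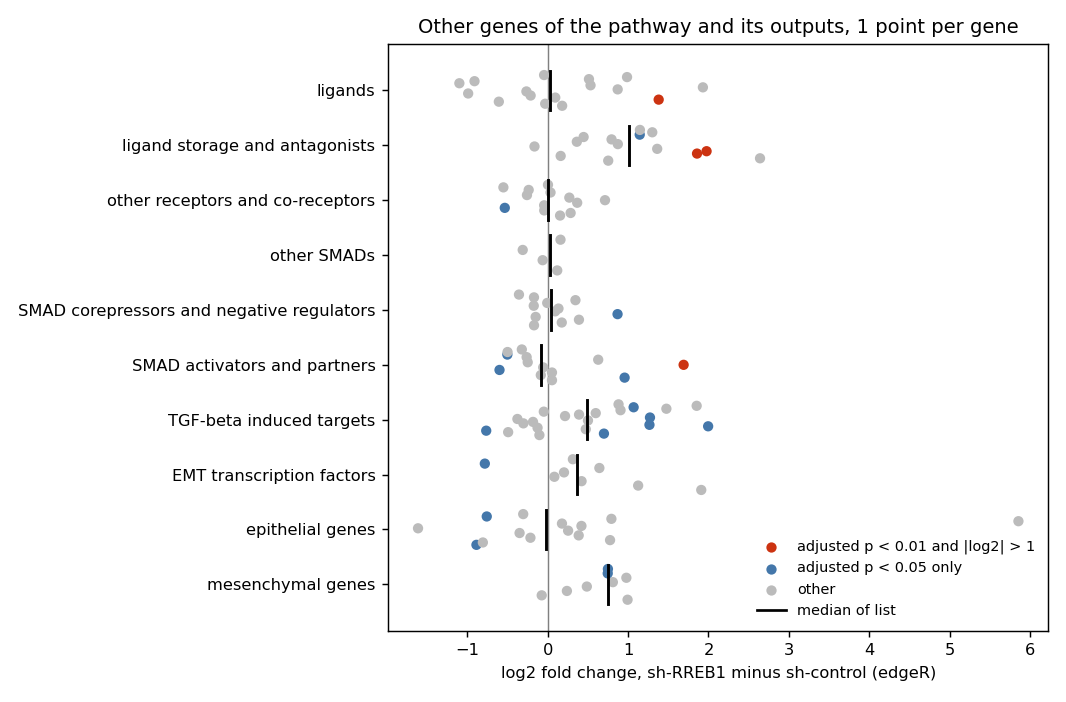
Each point is 1 tested gene of a list, placed by its log2 fold change (sh-RREB1 minus sh-control, edgeR), with the called genes in red, those at an adjusted p under 0.05 only in blue, and a black line for the median of each list. The 4 called genes lie above 0, in the ligands, the storage and antagonist genes and the activators and partners. The point near 5.86 is KRT19, which has reads in 1 library.

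Among 22 genes listed as TGF-beta induced targets, ID1, ID2 and ID3 among them, none was called by edgeR. Whether TGF-beta induces each of the 22 in these cells was not tested. DESeq2 called 2 (9.09%), beside 7.07% of all genes. In edgeR 10 (45.5%) had an unadjusted p under 0.05, beside 34.4% of all genes. The median log2 fold change was 0.49, with 14 of 22 above 0, and 0.21 after the GC correction, beside 0.01 and 0.10 over all genes. A mean under 1 CPM was found for 5 of the 22. COL1A1, a fibrillar collagen, had 8, 11 and 22 reads in sh-control, compared with 52, 69 and 12 reads in sh-RREB1, a 3.99-fold difference (edgeR adjusted p = 0.0132). On the log2 scale the difference was 1.29 after the GC correction, against 1.996 without it. Markers of other cells stood apart in 1 of those libraries. COL1A2 had 103 reads in sh-RREB1 replicate 2, 1 in replicate 3 and 0 in the other 4, DCN had 17 in replicate 2 and 0 to 3 elsewhere, and KRT19, an epithelial keratin, had 20 in replicate 2 and 0 elsewhere. In sh-RREB1 replicate 1, where COL1A1 had 52 reads, COL1A2 and DCN were at 0. Of 9 markers of other cells, COL1A1 among them, 7 were under 1 CPM in all libraries and CD3E was at 0. The summed level was 1.07 to 1.54 CPM in sh-control and 1.14 to 7.76 CPM in sh-RREB1. Without sh-RREB1 replicate 2 the log2 fold change of COL1A1 was 1.70 (edgeR adjusted p = 0.0471). With the GC correction as well it was 1.14 (0.0616). The part of other cells in the collagen values was not tested. COL4A1 had 1.27 (adjusted p = 0.0143), BHLHE40, a stress-responsive repressor, 0.70 (0.0345) and CCN2, encoding a matricellular protein, -0.77 (0.0390). The last 3 were named after their values were seen, and their values are from the fit without the GC correction. In sh-control COL4A1 was lowest in replicate 1, at -0.61 on the log2 scale from the sh-control mean. Replicates 2 and 3 were at 0.12 and 0.49.

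Among the genes of epithelial-mesenchymal transition, ZEB1, CDH1 and VIM had an adjusted p under 0.01 with a fold under the minimum, as did 2.09% of all genes. None of 8 transcription factors of epithelial-mesenchymal transition was called by edgeR or by DESeq2. An unadjusted p under 0.05 was found for 3 (37.5%), beside 34.4% of all genes. The log2 fold changes of the 8 were above 0 for 7 and below 0 for 1, ZEB1. Their median was 0.37 (0.25 after the GC correction), beside 0.01 and 0.10 over all genes. A mean under 1 CPM was found for 3 of the 8. ZEB1, an E-box repressor, was at 85.8, 79.0 and 76.5 CPM in sh-control, compared with 55.0, 38.5 and 46.9 CPM in sh-RREB1, lower in all 3 libraries. Its log2 fold change was -0.78 (edgeR adjusted p = 0.00954), and -0.45 (0.0148) after the GC correction. Each fit that left out 1 library put ZEB1 over 0.01, at adjusted p-values from 0.0104 to 0.0512 and values from -0.92 to -0.66. Among 14 epithelial genes none was called by either tool, and 5 (35.7%) had an unadjusted p under 0.05, beside 34.4% of all genes. The list as a whole was split, with 7 log2 fold changes above 0 and 7 below, and a median of -0.02 (-0.16 after the GC correction). The groups did not overlap for 6 of the 14, 2 on the higher side and 4 on the lower. Over all genes this share was 41.1% (21.1% higher, 20% lower). CDH1 (E-cadherin) was at 8.57, 9.24 and 9.04 CPM in sh-control, compared with 5.28, 4.47 and 4.76 CPM in sh-RREB1. The groups lay apart, with a log2 fold change of -0.89 ± 0.16 (SE, adjusted p = 0.00930) and -0.75 (0.00301) after the correction. Leaving out each library in turn gave CDH1 -0.96 to -0.83, at adjusted p-values from 0.00336 to 0.0520. OCLN, a tight junction protein named after its values were seen, had -0.76 (adjusted p = 0.0101) and -0.43 after the correction.

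Among 8 mesenchymal genes none was called by edgeR or by DESeq2. An unadjusted p under 0.05 was found for 3 (37.5%), beside 34.4% of all genes. In this list 7 had a log2 fold change above 0. The median of the list was 0.75, and 0.61 after the GC correction, beside 0.01 and 0.10 over all genes. VIM (vimentin) was at 331, 360 and 330 CPM in sh-control, compared with 569, 616 and 530 CPM in sh-RREB1. The lowest sh-RREB1 library was well above the highest sh-control library, the log2 fold change was 0.75 ± 0.10 (SE, edgeR adjusted p = 0.00391), and after the GC correction it was 0.81. Leaving out each library in turn gave 0.69 to 0.80, at adjusted p-values from 0.00243 to 0.0321. SPARC, a matrix protein named after its values were seen, had 0.75 (adjusted p = 0.0129) without the GC correction. CDH2 (N-cadherin), also named after its values were seen, had -0.07 (adjusted p = 0.642) in the same fit.

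**Figure D4:**
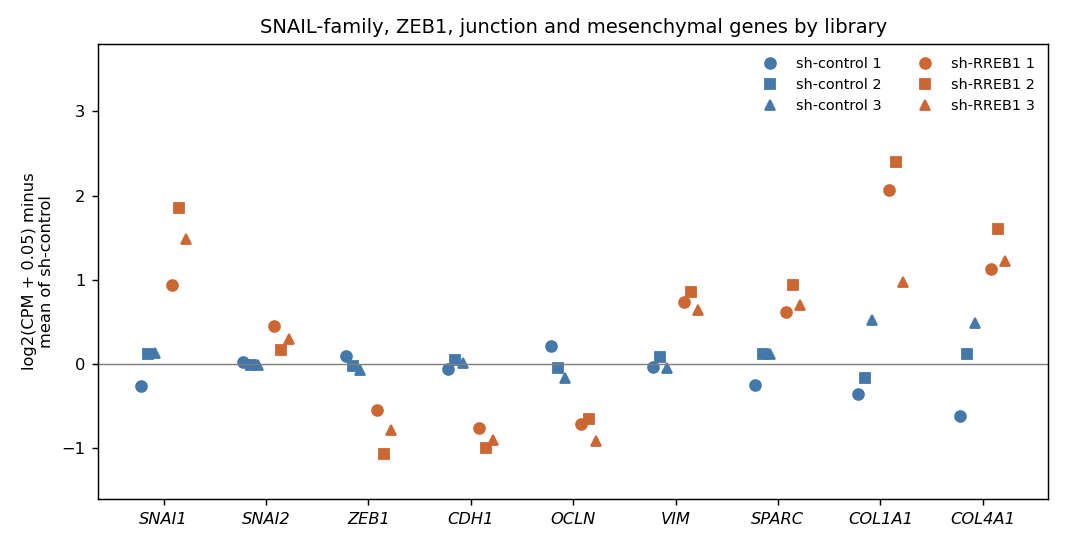
The vertical axis is log2(CPM + 0.05) minus the mean of the 3 sh-control libraries, for SNAI1, SNAI2, ZEB1, CDH1, OCLN and 4 mesenchymal or collagen genes, with 1 marker per library. ZEB1, CDH1 and OCLN lie below 0 and VIM and SPARC above 0 in all 3 sh-RREB1 libraries, and SNAI2 lies 0.17 to 0.45 above. CDH1 and OCLN come from the list of 14 epithelial genes, of which 7 had log2 fold changes above 0 and 7 below.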

How the data were processed

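Reads per gene had been counted by the authors with STAR on hg38, and the deposited count tables hold raw counts, with no normalization, for each strand and for both. The strand of the gene was used, since the labels name a stranded kit, and the merged table held the same counts for 24635 identifiers. Reads on no gene or on several genes, 21.4% to 35.9% of aligned reads, and multimapped reads were left out. Identifiers were joined by symbol, keeping the one with most reads, which left 55767, and genes with fewer than 10 reads over 6 libraries were dropped. Groups were compared in edgeR 4.0.16 (quasi-likelihood, TMM, group only), with DESeq2 1.42.0 as an alternative. A GC and length correction used splines with 5 degrees of freedom as an offset, from hg38 and Gencode 44. The fit was tested on simulated data. CPM are reads per 1000000 of TMM-scaled library size, and marker levels were per 1000000 reads on genes. The genes, the lists and the tests were chosen with earlier results of these data known. Named were the 9 genes, RREB1, the called genes of each list (up to 5, otherwise the gene with the smallest adjusted p among those with a mean of at least 1 CPM) and the gene most like each of the 9.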

Additional observations from a re-analysis of the deposited data

How the results depend on the processing

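None of the 9 pathway genes was called in any fit at the reported thresholds; 1 was called at an adjusted p under 0.05 with the minimum fold and 2 with no minimum fold. The count over all genes, 794, was 1647 with DESeq2, 1801 with a minimum of 1 read, 1684 with the replicate block, 2032 at an adjusted p under 0.05 with the minimum fold and 4567 with none. It ran from 8 (without sh-RREB1 replicate 3) to 1117 (without sh-control replicate 1) when 1 library was left out, with 9, 25, 136 and 383 without sh-control 2, sh-RREB1 1, sh-RREB1 2 and sh-control 3. With the GC correction it was 887, and from 625 to 881 when a library was also left out, a combination chosen after seeing the data. Of the 124 list genes, 4 called became 7 with DESeq2, 8 with a minimum of 1 read, 2 with both strands, 9 and 21 at the looser thresholds, 0 to 5 with a library left out, and 3 to 5 with the GC correction and a library left out. Calls of FURIN and FSTL3 were lost with both strands together, and that of FSTL3 with the GC correction. The count of the 9 that did not overlap, 4, was 5 to 6 with a library left out and 5 to 7 with the correction too, beside shares of all genes of 47.0% to 52.2% and of 42.6% to 51.6% (41.1% with all 6 libraries and no correction). The sign turned with the GC correction for SMAD2 (0.054), SMAD7 (-0.14), SKIL (0.12) and SKI (-0.18). Without 1 library the values ran from -0.055 to 0.089 for TGFBR2, -0.12 to 0.21 for SMAD4, -0.31 to -0.16 for SMAD2, -0.026 to 0.32 for SMAD7 and -0.44 to 0.075 for SKIL. With the correction as well they ran from -0.02 to 0.12 for SMAD2, -0.24 to -0.06 for SMAD7, 0.00 to 0.22 for SKIL and -0.54 to 0.44 for SKI (1.13 without the correction and without sh-control replicate 1), with highest values of 0.35 for TGFBR2 and 0.40 for SMAD4. The causes were not tested.

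Same-numbered libraries correlated in their deviations from the group means at 0.50, 0.43 and -0.28 (14338 genes). The highest correlation, 0.56, was between sh-control replicate 3 and sh-RREB1 replicate 2. The labels give only replicate numbers, and these values cannot tell whether any libraries were prepared together. The replicate block gave 1684 genes and 7 list genes, and with the GC correction 8 list genes, and SMAD2 at 0.054, SMAD7 at -0.13, SKIL at 0.11 and SKI at -0.12. Depth limits SNAI1, with 3 to 19 reads, and 29 of the 124 list genes had a mean under 1 CPM. Under edgeR's filterByExpr SNAI1 was not tested, and with a prior count of 2 the gene most like SNAI1 was no longer BCYRN1.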
